A study of Mus musculus with 18 samples.

Results

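Elastic fibre assembly was described in fetal mouse lung through 10 genes chosen by their symbols: Eln, Fbn1, Fbn2, Fbln5, Lox, Loxl1, Loxl2, Mfap2, Mfap5 and Emilin1. Values could be given for 8 of these 10 genes, through 17 of the 45037 probe sets tested; 18193 genes in all had a probe set with 1 symbol. Fbn1 was not matched to a probe set by the annotation used and was not analysed here, and the probe sets of Loxl2 also carried a second symbol, so no value is given under its name. RNA was from whole lungs of BALB/c fetuses, and 6 groups were compared, each with 3 arrays. Males exposed to flutamide, an antiandrogen that blocks the androgen receptor, were harvested at gestational day (GD) 18 (18 flut) or GD17 (17 flut), after daily subcutaneous injections of 1 mg into the dam from GD10. Males (18 m, 17 m) and females (18 f, 17 f) came from dams injected on the same schedule with the vehicle, a saline solution of gelatin and dimethyl sulfoxide. Each array carried RNA pooled from 3 fetuses of the same sex taken from distinct litters, and sex was read from the genital tract and by PCR of Sry. No females exposed to flutamide were among the samples, and which litters went into which pools is not given in the sources used here.

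Elastic fibres give the lung its recoil. They are built outside the cell from tropoelastin, the soluble product of Eln, which is guided onto a scaffold of fibrillin microfibrils and then cross-linked into insoluble elastin. In the developing lung, the fibres are laid down by smooth muscle cells of airways and vessels and by myofibroblasts of the future air spaces, and mice lacking elastin do not form normal distal air spaces. Fibrillin 2, the product of Fbn2, is a fibrillin of fetal tissues, and Mfap2 and Mfap5 encode the microfibril-associated glycoproteins MAGP-1 and MAGP-2. Fibulin 5, the product of Fbln5, binds tropoelastin and helps deliver it to the microfibrils, while Lox and Loxl1 encode copper-dependent enzymes that cross-link it. Emilin1 encodes a glycoprotein found where elastin meets the microfibrils.

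Promoters of 4 of the 10 members (Fbn1, Fbln5, Mfap2 and Emilin1) were held in the RefSeq table of build GRCm38.p6. The 250 bases before the start are shown for 3 of these genes, which differed in what they did between the days: Fbln5 was higher at GD18 in all 3 groups, Mfap2 was slightly lower in 2 groups, and Emilin1 passed the test in none. Bases run 5′ to 3′ on the strand of the gene, and capitals mark the GC box GGGCGG or the hexamer AGAACA of androgen receptor elements, on either strand. Both Fbln5 windows lie on the minus strand of chromosome 12, at chr12:101819120-101819369 for the first start and chr12:101818485-101818734 for the second. The windows of the first Mfap2 start (chr4:141010431-141010680) and of Emilin1 (chr5:30913536-30913785) lie on the plus strand, and that of the second Mfap2 start (chr4:141010174-141010423), which lies just before the first, was searched but is not shown.
Fbln5, first start: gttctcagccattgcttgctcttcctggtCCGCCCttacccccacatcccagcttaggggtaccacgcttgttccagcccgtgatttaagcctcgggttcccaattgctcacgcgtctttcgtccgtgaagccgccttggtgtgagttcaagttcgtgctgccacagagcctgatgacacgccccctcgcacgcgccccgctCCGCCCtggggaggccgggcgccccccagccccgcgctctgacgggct
Fbln5, second start: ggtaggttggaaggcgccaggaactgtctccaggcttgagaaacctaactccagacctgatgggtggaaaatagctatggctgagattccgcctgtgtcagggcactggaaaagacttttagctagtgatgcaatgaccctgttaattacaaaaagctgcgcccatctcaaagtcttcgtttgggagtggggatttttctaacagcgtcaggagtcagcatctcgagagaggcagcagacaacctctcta
Mfap2, first start: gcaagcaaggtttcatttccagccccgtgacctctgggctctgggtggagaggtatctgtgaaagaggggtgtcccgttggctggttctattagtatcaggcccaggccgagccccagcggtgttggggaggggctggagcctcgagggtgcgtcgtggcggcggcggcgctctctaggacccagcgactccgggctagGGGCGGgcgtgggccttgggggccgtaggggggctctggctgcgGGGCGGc
Emilin1: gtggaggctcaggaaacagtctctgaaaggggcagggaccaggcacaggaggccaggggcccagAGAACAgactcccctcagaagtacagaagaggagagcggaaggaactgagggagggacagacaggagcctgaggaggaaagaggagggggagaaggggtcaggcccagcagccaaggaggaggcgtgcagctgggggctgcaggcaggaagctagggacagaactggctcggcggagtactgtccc
The GC box was matched 2 times before the first Fbln5 start and 2 times before the first Mfap2 start, and it was not matched before the second start of either gene or in the window of Emilin1. It is present in 32.7% of the 32851 promoter windows of the table. AGAACA was matched 1 time in the window of Emilin1 and 1 time before the second Mfap2 start, 197 bases from it, and it is present in 16.1% of all windows. TATAAA was searched as well, on both strands, and was not matched in any of these windows, against 12.4% of all windows. The 3 motifs do not overlap one another here, and a match is only a stretch of letters.

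Array medians lay between 6.34 and 6.40 on the log2 scale, on which all levels below are given, and correlations between arrays lay between 0.970 and 0.998. Some pools stood apart. The summed intensity of the 8 measured exocrine pancreas genes was 10750 to 13900 in pools 17 m 3, 17 f 2 and 17 f 3, against 548 to 734 in the other 15 pools. That of 8 liver genes was 71210 in pool 18 m 3, 40500 in 18 flut 2 and 35320 to 35860 in the 3 pancreas-rich pools, and 2041 to 16150 in the others. That of 8 squamous epithelium genes was 8721 and 8560 in 17 f 2 and 17 f 3, and at most 3642 in the others. That of 6 skeletal muscle genes reached 23370 in 18 flut 2 and 13480 in 18 f 2, and was 914 to 3428 in the others. Xist, the RNA of the inactive X chromosome, was at 11.95 in pool 18 flut 3, against 8.15 and 8.08 in the other pools of that group and 12.33 to 12.51 in 18 f, and its Y-linked Uty was at 7.11, against 8.34 and 8.31 in those 2 pools, so this pool did not match its label of males alone. Results that turn on these pools are given with and without them for the brightest probe set of each member gene. Other probe sets were not refitted with pools left out. The mean level of 9 lung epithelium markers lay between 8.82 and 11.01 and that of 8 fibroblast markers between 10.95 and 11.57 over the 18 pools, above the median probe set. In a whole lung, fewer cells of a type and less RNA per cell cannot be told apart.

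Eln, the gene of tropoelastin, had the largest difference of the 8 genes between the days in each group. In flutamide-treated males, the 3 pools were at 12.91, 12.70 and 12.95 at GD18 and at 11.83, 11.87 and 11.84 at GD17. In males, they were at 12.47, 12.49 and 12.88 at GD18 and at 11.59, 11.85 and 11.34 at GD17. In females, they were at 12.99, 12.83 and 12.88 at GD18 and at 11.20, 11.16 and 11.19 at GD17. Every GD18 pool was above every GD17 pool, whatever its sex or treatment. Eln was thus 2.01-fold higher at GD18 in flutamide-treated males (log2 difference 1.01 ± 0.12, SE, adjusted p = 2.03e-05, limma), 2.03-fold higher in males (1.02 ± 0.12, adjusted p = 1.65e-05) and 3.29-fold higher in females (1.72 ± 0.12, adjusted p = 7.23e-08). The second Eln probe set was higher at GD18 by 1.17 in flutamide-treated males, 0.67 in males and 1.71 in females, with adjusted p = 1.82e-05, 0.00176 and 1.84e-07. The calls of the brighter probe set did not turn on a single pool: with each left out in turn, its differences stayed at 0.96 to 1.08, 0.89 to 1.15 and 1.67 to 1.75. The second probe set was not refitted in this way.

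From high to low, the group means of Eln were 12.90 ± 0.08 (SD, n = 3) in 18 f, 12.85 ± 0.13 in 18 flut, 12.62 ± 0.23 in 18 m, 11.85 ± 0.02 in 17 flut, 11.59 ± 0.26 in 17 m and 11.18 ± 0.02 in 17 f. Among neighbours in this order within a day, no difference passed the test in this probe set, while the first and last groups of GD17 did differ, as given below. The wide spread of 18 m came from pool 18 m 3 at 12.88, and that of 17 m from 17 m 3 at 11.34 and 17 m 2 at 11.85.

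**Figure D1:**
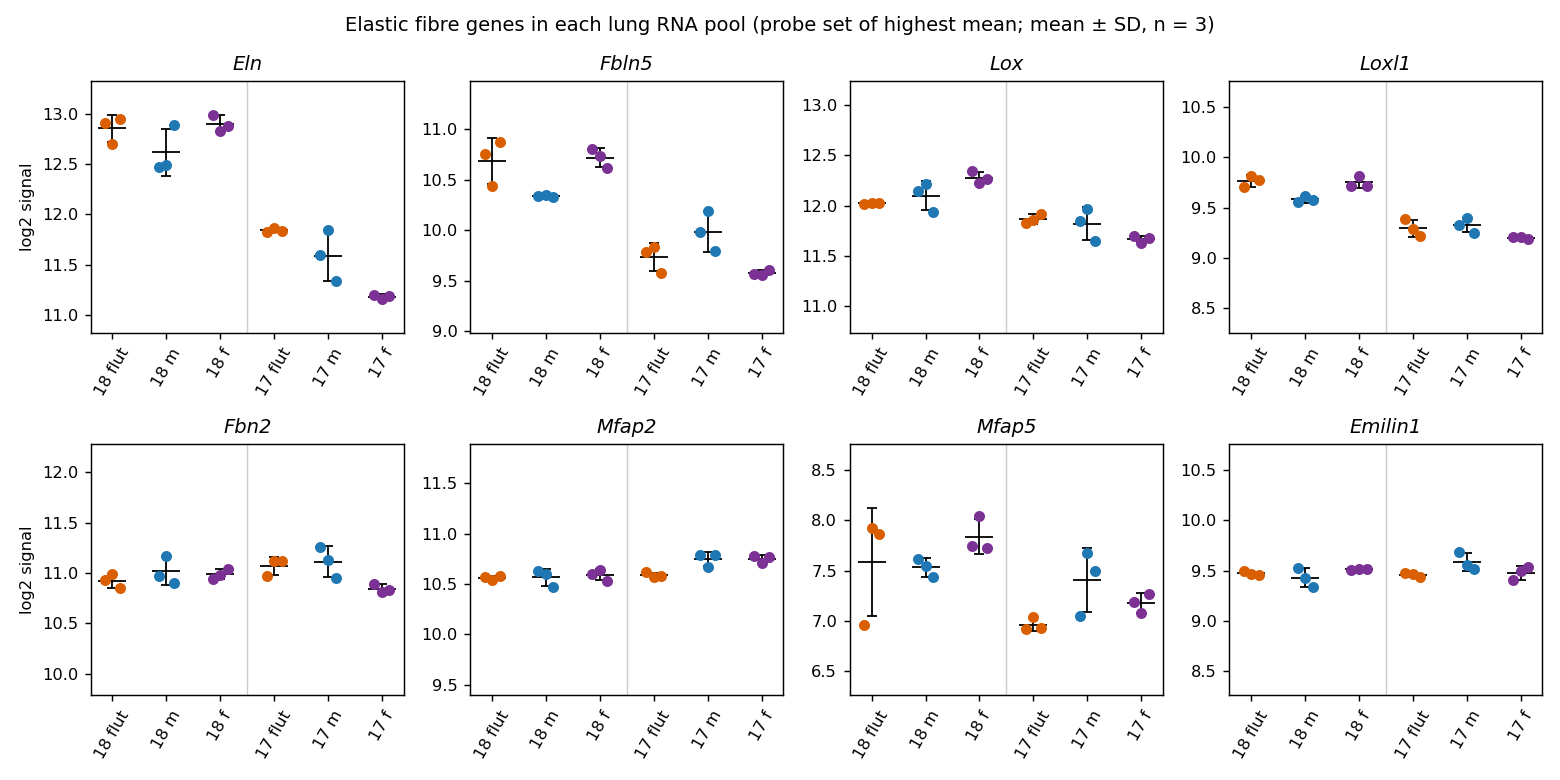
Log2 signal (y axis) of the brightest probe set of each of 8 genes in the 6 groups (x axis); each point is a pool, lines and bars are the mean and SD of 3 pools, and every panel spans the same range of log2 units. All Eln pools of GD18 lie above 12.4 and all of GD17 below 11.9, while Fbn2, Mfap2 and Emilin1 move little.

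Fbln5 followed Eln in females and in flutamide-treated males, with a smaller difference in males. Its pools were at 10.76, 10.44 and 10.87 in 18 flut and at 9.78, 9.83 and 9.57 in 17 flut. Those of males were at 10.34, 10.35 and 10.32 at GD18 and at 9.98, 10.19 and 9.79 at GD17. Those of females were at 10.81, 10.73 and 10.62 at GD18 and at 9.56, 9.55 and 9.61 at GD17. In each of the 3 groups, the pools of the 2 days did not overlap, and the GD18 males were the most alike. The gene was higher at GD18 by 0.96 ± 0.11 in flutamide-treated males (1.95-fold, adjusted p = 1.69e-05), 0.35 ± 0.11 in males (1.28-fold, adjusted p = 0.0271) and 1.15 ± 0.11 in females (2.21-fold, adjusted p = 8.37e-07). The call in males was lost without 17 m 1 (0.35, adjusted p = 0.0679), 17 m 3 (0.25, 0.131), 18 m 1 (0.35, 0.0522), 18 m 2 (0.35, 0.0603) or 18 m 3 (0.36, 0.051), and the difference was 0.25 (adjusted p = 0.17) without the 3 pools high in pancreas genes. The other probe set of Fbln5 averaged 5.01, under the median of 6.39 over all probe sets, and passed only in flutamide-treated males (0.42, adjusted p = 0.0331).

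The cross-linking enzymes had smaller differences. Loxl1 pools were at 9.71, 9.82 and 9.77 in 18 flut and at 9.39, 9.28 and 9.22 in 17 flut. They were at 9.55, 9.62 and 9.58 in 18 m and at 9.33, 9.39 and 9.25 in 17 m. They were at 9.71, 9.82 and 9.72 in 18 f and at 9.21, 9.21 and 9.19 in 17 f. No GD18 pool fell within the range of GD17 in any group. Loxl1 was higher at GD18 by 0.47 ± 0.06 in flutamide-treated males (1.39-fold, adjusted p = 4.64e-05), 0.26 ± 0.06 in males (1.20-fold, adjusted p = 0.00512) and 0.55 ± 0.06 in females (1.46-fold, adjusted p = 3.32e-06). With each pool left out in turn, all 3 calls were kept. Its dimmer probe set, at a mean of 6.06, passed in none of the 3 groups.

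Lox pools were at 12.02, 12.03 and 12.03 in 18 flut and at 11.83, 11.86 and 11.92 in 17 flut, which did not overlap but differed by only 0.16 ± 0.08 (adjusted p = 0.208). They were at 12.15, 12.21 and 11.94 in 18 m and at 11.84, 11.97 and 11.65 in 17 m. The male pools overlapped through 18 m 3, the liver-rich pool, and the difference was 0.28 ± 0.08 (1.21-fold, adjusted p = 0.0182). It missed the threshold without 17 m 3 (0.19, adjusted p = 0.0962), 18 m 1 (0.25, 0.0531) or 18 m 2 (0.22, 0.08), and without the 3 pancreas-rich pools (0.19, 0.129). The second Lox probe set differed by -0.05 between the days in males (adjusted p = 0.861), with 18 m 3 at 10.61 against 11.28 and 11.19 in the other GD18 male pools. In females, Lox was at 12.34, 12.23 and 12.26 at GD18 and at 11.70, 11.63 and 11.68 at GD17, a clear separation (0.61 ± 0.08, 1.52-fold, adjusted p = 1.8e-05), and its second probe set was higher by 0.58 (adjusted p = 0.00256).

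Mfap5 was the most variable member. Its pools were at 6.96, 7.93 and 7.87 in 18 flut and at 6.92, 7.04 and 6.93 in 17 flut. Pool 18 flut 1 lay within the range of the GD17 pools, and the other 2 lay almost 1 log2 unit above it. The difference of 0.62 ± 0.20 in flutamide-treated males (adjusted p = 0.0339) was lost when 18 flut 2 (0.45, adjusted p = 0.159), 18 flut 3 (0.48, 0.161), 17 flut 1 (0.60, 0.0919), 17 flut 2 (0.66, 0.0647) or 17 flut 3 (0.61, 0.0896) was left out. In males, the pools were at 7.62, 7.55 and 7.43 at GD18 and at 7.05, 7.67 and 7.49 at GD17, which overlapped (0.13 ± 0.20, adjusted p = 0.711). In females, they were at 7.75, 8.04 and 7.73 at GD18 and at 7.18, 7.08 and 7.27 at GD17, with no overlap (0.66 ± 0.20, 1.58-fold, adjusted p = 0.0157). That call was lost without 17 f 2 (0.61, adjusted p = 0.0568) or 18 f 2 (0.56, 0.0701), and without the pancreas-rich pools, which leaves 1 pool in 17 f (0.65, 0.168). The highest Mfap5 pools, 18 f 2 and 18 flut 2, were also those highest in skeletal muscle genes, and the part of this in the result was not tested. The second Mfap5 probe set was higher at GD18 in flutamide-treated males (0.46, adjusted p = 0.011) and females (0.49, adjusted p = 0.00417).

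The brightest probe sets of Mfap2, Fbn2 and Emilin1 differed by less than 0.2 between the days in every group. Mfap2 was lower at GD18 in males, with pools at 10.63, 10.60 and 10.47 against 10.79, 10.67 and 10.79 at GD17 (fell by 0.18 ± 0.06, adjusted p = 0.0318), and in females, with pools at 10.60, 10.64 and 10.53 against 10.78, 10.71 and 10.77 (fell by 0.16 ± 0.06, adjusted p = 0.0492). The pools of the 2 days did not overlap, yet the differences were near 1.1-fold. The call in males was lost without 17 m 1 (-0.17, adjusted p = 0.101), 17 m 3 (-0.16, 0.0965) or 18 m 3 (-0.14, 0.128). That in females was lost in 15 of the 18 fits with a pool left out, where the difference stayed between -0.18 and -0.13. In flutamide-treated males, Mfap2 differed by -0.02 ± 0.06 (adjusted p = 0.852), and its dimmer probe set passed in no group. Fbn2 differed by -0.15 ± 0.08 in flutamide-treated males, -0.10 ± 0.08 in males and 0.14 ± 0.08 in females, with adjusted p of 0.266, 0.458 and 0.216. Its second probe set was lower at GD18 in flutamide-treated males, at 9.76, 9.70 and 9.59 against 10.03, 10.10 and 10.02 (fell by 0.37 ± 0.10, adjusted p = 0.0104). That probe set was not refitted with pools left out. Emilin1 pools lay between 9.34 and 9.68 in all 6 groups, and its differences between the days of 0.01, -0.15 and 0.03 in flutamide-treated males, males and females had adjusted p of 0.928, 0.0926 and 0.741.

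With each gene counted through its brightest probe set, 4 of 8 genes were higher at GD18 and none lower in flutamide-treated males (Eln, Fbln5, Loxl1 and Mfap5), where 20.3% of all probe sets were called in either direction, 9.61% higher and 10.7% lower. In males, 4 of 8 were higher (Eln, Fbln5, Lox and Loxl1) and 1 lower (Mfap2), against 25% of all probe sets called, 12.4% higher and 12.6% lower. In females, 5 of 8 were higher (Eln, Fbln5, Lox, Loxl1 and Mfap5) and 1 lower (Mfap2), against 33.6% called, 16.5% higher and 17.1% lower. The median difference of the 8 genes was 0.31 in flutamide-treated males, 0.19 in males and 0.58 in females, against -0.01, 0.01 and 0.02 over all probe sets. With only the groups compared in the fit, the calls in males numbered 1, and the share of all probe sets called in that fit is not given here. Without the 3 pancreas-rich pools, Eln was still higher by 0.90 in males and 1.70 in females.

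**Figure D2:**
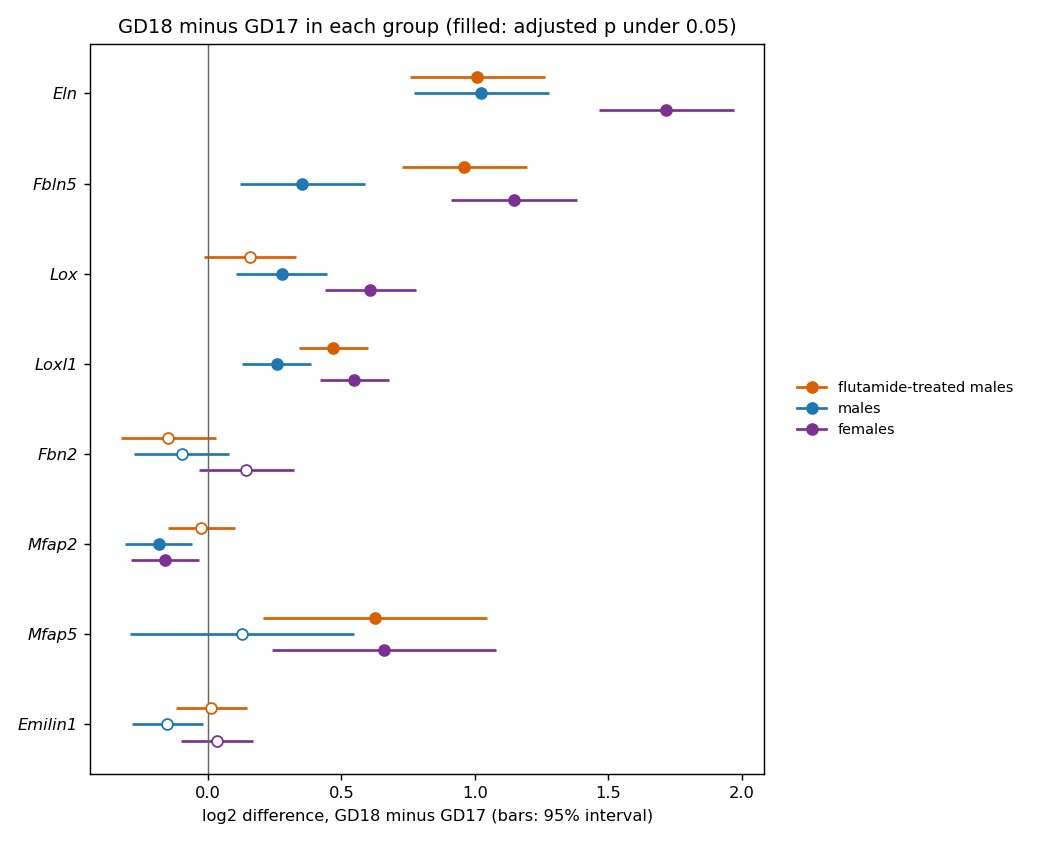
Log2 difference between GD18 and GD17 (x axis) of 8 genes (y axis) in flutamide-treated males, males and females; points are estimates of the limma model, bars its 95% intervals, and filled points have an adjusted p under 0.05. The estimate for Eln is 1.72 in females against 1.02 in males, and that for Fbln5 is 1.15 in females, 0.35 in males and 0.96 in flutamide-treated males.

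Males and females were compared on each day. At GD17, 7 of the 8 genes had a positive difference of males minus females, with Mfap2 at 0.00 the exception, and 1 passed the test, Fbln5, against 4.1% of all probe sets called and 3.6% higher. Fbln5 pools were at 9.98, 10.19 and 9.79 in 17 m and at 9.56, 9.55 and 9.61 in 17 f, and the difference was 0.41 ± 0.11 (1.33-fold, adjusted p = 0.0462). All male pools were above all female pools. This call was not firm, since it was lost in 13 of the 18 fits with a pool left out: those without 17 m 1, 17 m 2, 17 f 1, 17 f 2 or 17 f 3 gave 0.41, 0.31, 0.40, 0.40 and 0.43, with adjusted p of 0.117, 0.21, 0.0914, 0.145 and 0.115. The other 8 were fits without a pool of another group, in which the difference was the same and the adjusted p was 0.0533 to 0.0618. Without the 3 pancreas-rich pools, 2 of which are 17 f pools, the difference was 0.52 (adjusted p = 0.204), and averaged over both Fbln5 probe sets, the dim one included, it was 0.19 (0.418).

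Eln was higher in 17 m than in 17 f by 0.41 ± 0.12 in its brighter probe set (adjusted p = 0.0674) and by 0.53 ± 0.14 in its second (adjusted p = 0.0382). Male pools were above female pools in both. The brighter probe set passed without 17 m 3 (0.54, adjusted p = 0.0122) or 18 m 3 (0.41, 0.0204). The second was not refitted with pools left out. The 4 members that had GD17 male pools wholly above female pools were Eln, Fbn2, Fbln5 and Loxl1, and 12% of all probe sets had such pools.

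At GD18, the differences of males minus females ran the other way. Of the 8 genes, 7 were below 0 and 0 passed the test (limma), against 1.85% of all probe sets called. At an unadjusted p under 0.05 there were 4: Eln, Fbln5, Lox and Loxl1. The share of all probe sets under that unadjusted threshold was not counted, here or below, so such counts have nothing to be set against. Fbln5 pools were at 10.34, 10.35 and 10.32 in 18 m and at 10.81, 10.73 and 10.62 in 18 f, with no overlap (-0.38 ± 0.11, adjusted p = 0.09). Loxl1 differed by -0.17 ± 0.06 (adjusted p = 0.198) and Lox by -0.18 ± 0.08 (adjusted p = 0.323). Fbln5, Lox, Loxl1 and Mfap5 had all male pools below all female pools, as did 7.33% of all probe sets. Eln differed by -0.28 ± 0.12 (adjusted p = 0.275), and pool 18 m 3 at 12.88 lay among the females. Without 18 m 3, the difference was -0.42 and passed (adjusted p = 0.0352), and the second Eln probe set was at -0.51 ± 0.14 in all pools (adjusted p = 0.0665).

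The change of the sex difference between the days was tested as an interaction, the GD18 difference minus the GD17 difference, which equals the day difference of males minus that of females. It was below 0 for all 8 genes in their brightest probe sets, with Mfap2 at -0.02, Mfap5 at -0.53 and a median of -0.31 against 0.01 over all probe sets, and 2 genes passed, Eln and Fbln5, against 6.54% of all probe sets called and 3.95% lower. For Eln it was -0.69 ± 0.17 (adjusted p = 0.0203), and -1.04 ± 0.19 in the second probe set (adjusted p = 0.0036), which was not refitted with pools left out. For Fbln5 it was -0.79 ± 0.16 (adjusted p = 0.0056). Loxl1 was at -0.29 ± 0.09 (adjusted p = 0.0566), which passed under 5 of the 9 alternatives of normalization and model, and Lox at -0.33 ± 0.11 (adjusted p = 0.101). The call of Fbln5 was kept with each pool left out in turn (adjusted p of 0.00202 to 0.0197) and without the 3 pancreas-rich pools (-0.91, 0.031), but its dim second probe set was at 0.11 (adjusted p = 0.814), and the mean over both was at -0.34 and not called (0.21). The call of Eln was lost without 17 m 2 (-0.57, adjusted p = 0.053), 18 m 1 (-0.62, 0.05, just past the threshold) or 18 f 1 (-0.65, 0.0609), and without the pancreas-rich pools (-0.80, 0.0604).

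Flutamide was set against vehicle in males to ask which members respond to blocking the androgen receptor. At GD18, 0 of 8 genes passed in the brightest probe set (limma), against 3.95% of all probe sets called and 3.21% lower. At an unadjusted p under 0.05, with the share of all probe sets not counted, there were 2, Fbln5 and Loxl1. Fbln5 pools were at 10.76, 10.44 and 10.87 in 18 flut, all above the 10.34, 10.35 and 10.32 of 18 m, with a difference of 0.35 ± 0.11 (95% interval 0.12 to 0.58, adjusted p = 0.0975). Without 18 flut 2, it was 0.48 (adjusted p = 0.0232), and without 18 flut 3, the pool with high Xist, it was 0.26 (0.316). Loxl1 was higher in every flutamide pool (0.18 ± 0.06, adjusted p = 0.122), and Eln differed by 0.24 ± 0.12 (95% interval -0.01 to 0.49, adjusted p = 0.319). The second Eln probe set differed by 0.41 ± 0.14 with no overlap (adjusted p = 0.122), and the brighter one by 0.37 without 18 m 3 (0.0565), by 0.19 without 18 flut 3 (0.553) and by 0.37 with array weights, where it passed (0.0114). Fbn2 passed only in its second probe set, at 9.76, 9.70 and 9.59 in 18 flut and 9.98, 10.19 and 10.02 in 18 m, all lower under flutamide (fell by 0.38 ± 0.10, 1.30-fold lower, adjusted p = 0.0335), while its brighter probe set differed by -0.09 ± 0.08 (adjusted p = 0.613). The 2 probe sets of Fbn2 therefore did not give the same call. The second was lowest in 18 flut 3, the pool with high Xist, and was not refitted without that pool.

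At GD17, 0 of 8 genes passed between flutamide-treated males and males (limma), against 3.55% of all probe sets called. An unadjusted p under 0.05, for which the share of all probe sets was not counted, was found in 4. Eln differed by 0.25 ± 0.12 (adjusted p = 0.245), Fbln5 by -0.26 ± 0.11 (0.207), Mfap2 by -0.16 ± 0.06 (0.136) and Mfap5 by -0.45 ± 0.20 (0.22). The second probe set ran the other way for Eln (-0.10 ± 0.14, adjusted p = 0.716) and for Mfap2 (0.21 ± 0.07, 0.113), and the brighter Eln probe set was at 0.13 without 17 m 3 (0.57) and at 0.38 without 17 m 2 (0.105). Mfap5 was the largest, with pools at 6.92, 7.04 and 6.93 in 17 flut and 7.05, 7.67 and 7.49 in 17 m, and all 3 flutamide pools lay below the males. The 95% intervals of these 4 differences reached 0.51 for Eln, and -0.49, -0.29 and -0.86 for the other genes in the same order, so changes of such sizes are within what 3 pools a group allow.

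The change of the flutamide difference between the days passed for 0 of 8 genes (limma), against 0.364% of all probe sets. It had an unadjusted p under 0.05 in 2, with the share of all probe sets not counted. The largest was Fbln5 at 0.61 ± 0.16 (adjusted p = 0.122), and Loxl1 was at 0.21 ± 0.09 (0.347). The estimate for Eln was -0.01 ± 0.17 (95% interval -0.37 to 0.34), and that of its second probe set 0.51 ± 0.19 (0.10 to 0.91, adjusted p = 0.309). The comparisons of flutamide with vehicle and of males with females share the male pools, so their values are given side by side and not as separate evidence.

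Flutamide-treated males were also set beside females. At GD17, Eln was higher in 17 flut, at 11.83, 11.87 and 11.84, than in 17 f, at 11.20, 11.16 and 11.19 (0.66 ± 0.12, 1.58-fold, adjusted p = 0.0103). It was the only one of 8 genes to pass, against 4.39% of all probe sets called and 2.66% higher. The gap was over 0.6 between the nearest pools, yet the call was lost without 17 f 3 (0.66, adjusted p = 0.0523) without the pancreas-rich pools (0.64, 0.241), which leaves 1 female pool, and with an indicator of those pools (0.52, 0.119). The second Eln probe set was higher by 0.43 ± 0.14 and did not pass (adjusted p = 0.0801). At GD18, 0 of 8 genes passed (limma), against 0.278% of all probe sets called. Only Lox had an unadjusted p under 0.05, with the share of all probe sets not counted. Lox was lower in 18 flut than in 18 f by 0.25 ± 0.08 with no overlap (adjusted p = 0.237), and Eln and Fbln5 differed by -0.05 ± 0.12 and -0.03 ± 0.11.

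**Figure D3:**
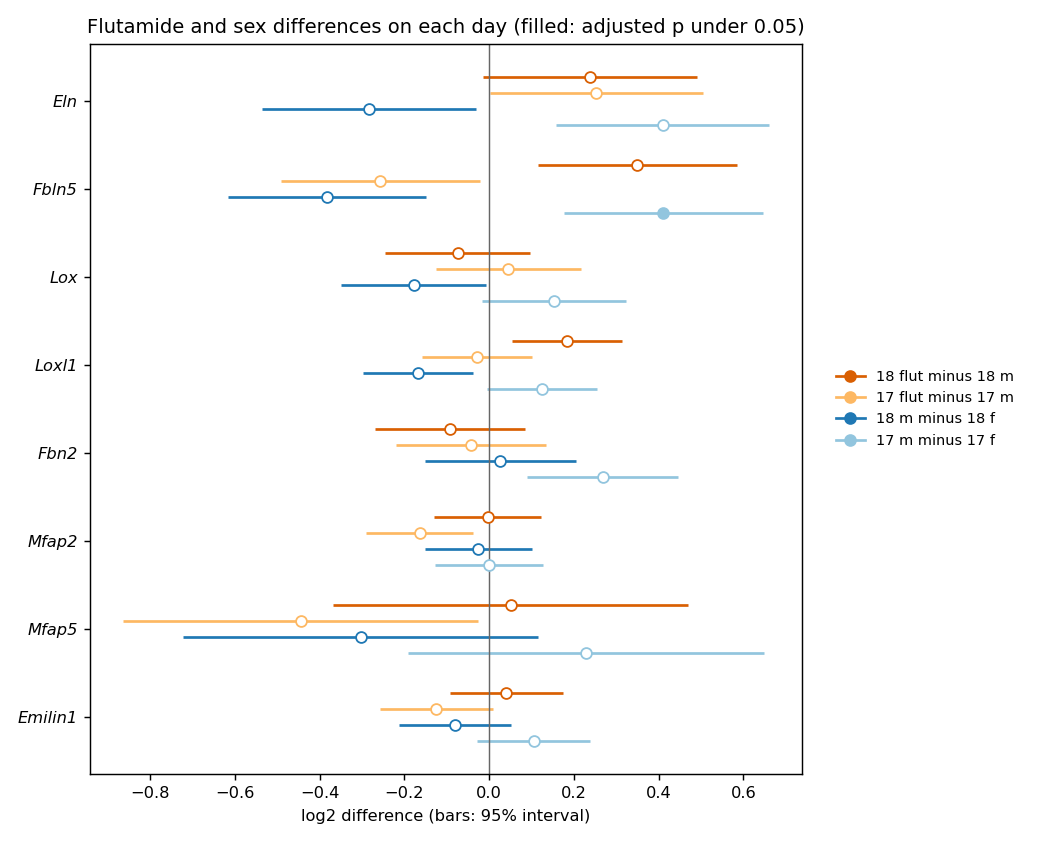
Log2 differences (x axis) of 8 genes (y axis) between flutamide-treated males and males and between males and females, each at GD18 and at GD17; bars are 95% intervals of the limma model, and filled points have an adjusted p under 0.05. Only Fbln5 in males minus females at GD17 is filled (0.41), and the point of the same gene at GD18 lies at -0.38.

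The 17 probe sets did not weigh equally. Both Eln probe sets were called between the days in all 3 groups, and both of Mfap5 in females and in flutamide-treated males. The third Lox probe set, at a mean of 4.14, the second of Fbln5, at 5.01, and the second of Loxl1, at 6.06, lay under the median probe set. The third Lox probe set was still called higher at GD18 than at GD17 in females. In pool 18 m 3 the second probe sets of Lox (10.61) and of Emilin1 (7.96, against 8.44 to 8.76 in the 17 other pools) were lower than in all other GD18 pools, while the brighter Emilin1 probe set was at 9.34 there.

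**Figure D4:**
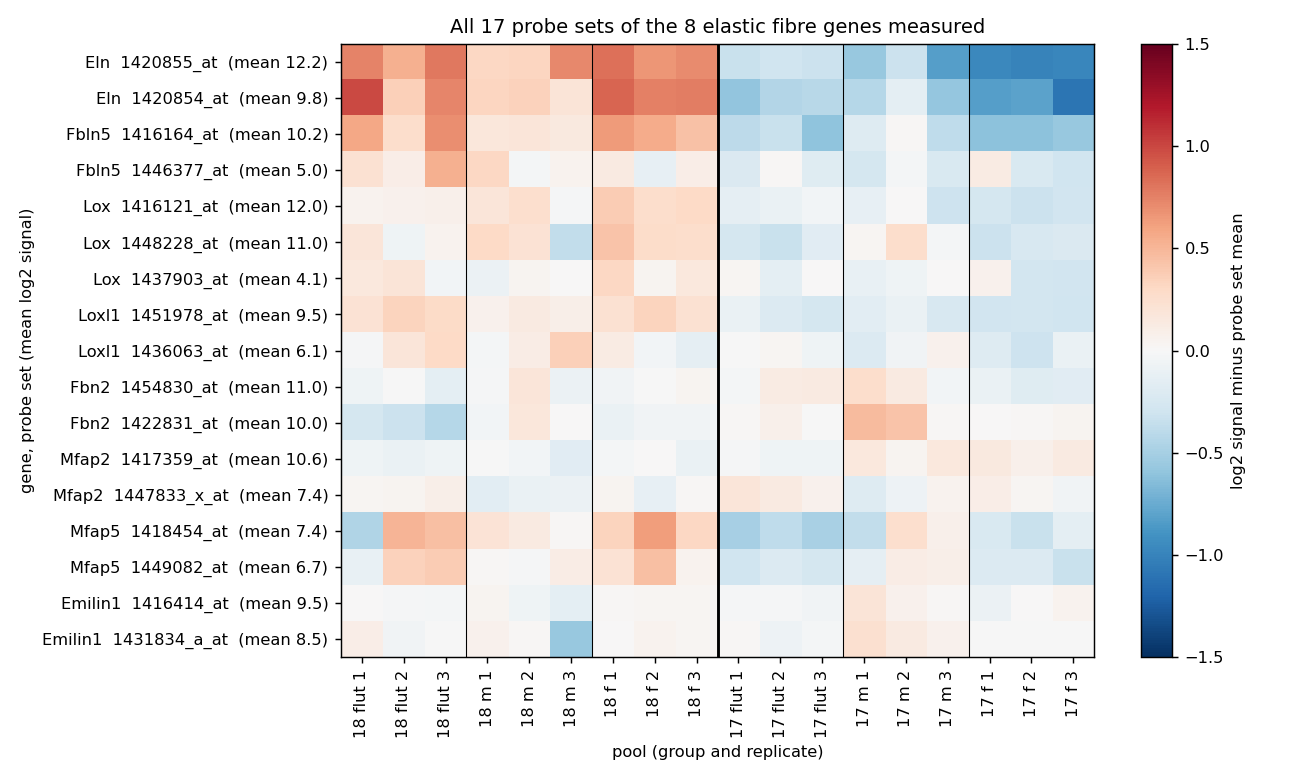
Log2 signal of the 17 probe sets (y axis, with the mean of each) in the 18 pools (x axis), after the mean of each probe set was subtracted; red is above and blue below that mean. The 2 probe sets of Eln and the first of Fbln5 and Loxl1 separate the days in all pools, and Mfap5 in pool 18 flut 1 has the colour of the GD17 flutamide pools.

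Over the 18 pools, Loxl1 (Pearson r = 0.942), Fbln5 (0.932) and Lox (0.867) were closest to Eln among the members, Mfap5 was at 0.578, Fbn2 and Emilin1 were at 0.012 and -0.228, and Mfap2 was at -0.792. These r values take in the differences between the 6 groups, days included, and with group means removed the r with Eln was 0.638 for Fbln5, 0.147 for Loxl1, 0.158 for Lox and -0.651 for Mfap2. Ranked by the r over the 18 pools, group differences included, among 11382 genes at or above the median level, Loxl1 was at place 463 and Fbln5 at place 606. The 5 genes nearest to Eln were Gsap, which encodes a gamma-secretase activating protein, Bgn, Spon1, Myh14 and Macf1, with r of 0.9889 to 0.9905. Bgn, the gene of the proteoglycan biglycan, was at 11.89 in 18 flut, 11.75 in 18 m, 11.91 in 18 f, 11.43 in 17 flut, 11.24 in 17 m and 11.12 in 17 f, the same order of groups as Eln. As Bgn was picked by its r with Eln over these same pools, the shared order is not separate evidence.

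Other genes that build, anchor or degrade elastic fibres were counted from a list of 53, of which 48 were measured. At GD18, 20 were higher and 4 lower in flutamide-treated males, 22 higher and 7 lower in males and 24 higher and 8 lower in females, beside 9.61%, 12.4% and 16.5% of all probe sets called higher and 10.7%, 12.6% and 17.1% lower. Adamtsl2, whose product binds fibrillin microfibrils, was higher by 0.86 ± 0.10, 1.00 ± 0.10 and 1.44 ± 0.10 in these groups (adjusted p = 1.88e-05, 4.97e-06 and 7.67e-08). Latent TGF-beta binding proteins were among them as well. Ltbp2 was higher by 1.05, 1.02 and 1.34 ± 0.12, and Ltbp3 by 0.74, 0.64 and 0.99 ± 0.08. Efemp1, which encodes fibulin 3, was higher by 0.74, 1.06 and 1.09 ± 0.10. Atp7a, the transporter that supplies copper to the lysyl oxidases, was higher by 0.48 ± 0.07 in males (adjusted p = 9.35e-05) and 0.79 ± 0.07 in females (3.36e-07). Fbln1, Fbln7, Vcan and Pcsk6 were lower at GD18 in all 3 groups. The median difference of the 48 genes was 0.24 in flutamide-treated males, 0.21 in males and 0.24 in females.

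Of the 48 genes, 3 passed between 17 flut and 17 m and 3 between 17 flut and 17 f, beside 3.55% and 4.39% of all probe sets. At GD17, Efemp1 (0.42 ± 0.10, adjusted p = 0.0254) and Atp7a (0.30 ± 0.07, 0.0263) were higher in 17 flut than in 17 m, and Dcn, the gene of decorin, was lower (-0.75 ± 0.20, 0.0465). Atp7a (0.39 ± 0.07, adjusted p = 0.00987), Bgn (0.30 ± 0.07, 0.0232) and Adamtsl2 (0.42 ± 0.10, 0.032) were higher in 17 flut than in 17 f, the comparison in which Eln passed. Males and females differed in 0 of the 48 genes on either day (limma), beside 1.85% of all probe sets called at GD18 and 4.1% at GD17. At an unadjusted p under 0.05 there were 8 at GD18 and 9 at GD17, with the share of all probe sets not counted. The interaction of sex and day passed for Itgav, an integrin subunit that binds matrix proteins, alone (-0.34 ± 0.08, adjusted p = 0.0171), beside 6.54% of all probe sets.

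Genes of the mesenchymal cells that lay down elastin were read beside these results, and their part in them was not tested. Of all probe sets, 20.3% were called between the days in flutamide-treated males, 25% in males and 33.6% in females. Of 12 smooth muscle and myofibroblast markers, 3 were higher at GD18 in flutamide-treated males and 0 lower, 2 higher and 4 lower in males, and 3 higher and 0 lower in females. Pdgfra, a marker of alveolar myofibroblast precursors, was higher by 0.37 ± 0.08, 0.22 ± 0.08 and 0.56 ± 0.08 (adjusted p = 0.00254, 0.0488 and 2.75e-05). Acta2, smooth muscle actin, fell by 0.37 ± 0.09 in males (adjusted p = 0.00392) and differed by -0.12 in females and in flutamide-treated males, which did not pass. Of 8 fibroblast markers, 5 were higher at GD18 in flutamide-treated males, 2 higher and 1 lower in males, and 7 higher in females. The summed fibroblast signal was 33260 to 34090 in 18 flut, 31310 to 32940 in 18 m and 34170 to 36050 in 18 f, against 25970 to 26250 in 17 flut, 27640 to 29380 in 17 m and 24620 to 25460 in 17 f. In the interaction of sex and day all 12 and all 8 markers of these lists were below 0, as were all 5 endothelium and 7 of 8 cartilage markers, while all 8 liver markers were above 0, and Hhip and Col1a1 (-0.47 ± 0.12, adjusted p = 0.0251) passed. At GD17, where Fbln5 was called higher in males than in females, 1 of these 12 markers (Hhip) and 1 of these 8 (Col1a1) were called higher. Of all probe sets, 3.6% were called higher. Of the 12 smooth muscle and myofibroblast markers, 7 were above 0 and 5 below, with a median of 0.01. All 8 fibroblast markers were above 0, with a median of 0.16.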

How the data were processed

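RNA of 18 lung pools was hybridized on Affymetrix MOE430 2.0 arrays. The authors read the images with GCOS v1.4 and normalized them by RMA, and the deposited value is a linear intensity. Their log2 was taken here. Limma is named in the processing notes of the submitters, with no version. Of 45101 probe sets, 64 AFFX controls were left out and 45037 tested with limma 3.58.1 in R 4.3.3 (statmod 1.5.0 for the replicate block), with a mean for each of 6 groups, 12 residual degrees of freedom and Benjamini-Hochberg adjustment within each comparison. Every adjusted p comes from this model, ± beside a difference is its SE and beside a level the SD, and called means an adjusted p under 0.05.

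Symbols came from a platform annotation of 2016: 34945 probe sets had 1 symbol, 932 several and 9160 none. A gene was counted through its probe set of highest mean, and its others were given apart. All members with values were named, with up to 6 other elastic fibre genes of smallest p in each comparison, the 5 genes nearest to Eln, and markers beside a result. The members, lists and motifs were chosen with earlier results of these data known. Fbln1, Fbln7, Vcan and Pcsk6 were named as the genes lower in all 3 groups, after their values were seen. The number of arrays limits precision. Replicate numbers were not used to pair the pools. Of 45 same-numbered pairs between groups, 12 had deviations correlated above 0.1, with r from -0.315 to 0.373. Pairs of different numbers were not compared, so these values cannot show whether any pools are paired. As alternatives, arrays were centred, quantile or cyclic loess normalized or weighted, dim probe sets were dropped, the prior of the variance was changed, the fit was limited to the groups compared, probe sets of a gene were averaged, replicate number was entered as a block and single pools were left out. Those on the pools that stood apart were added after the data were seen.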

Additional observations from a re-analysis of the deposited data

Results flagged for a closer look

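The sex difference of Eln and Fbln5 changed between the days, which was tested as an interaction (limma). In the brighter Eln probe set it was -0.69 ± 0.17 (SE, adjusted p = 0.0203), with males minus females at -0.28 at GD18 and 0.41 at GD17. In the second Eln probe set, which was not refitted with pools left out, it was -1.04 ± 0.19 (adjusted p = 0.0036), from -0.51 at GD18 and 0.53 at GD17. In Fbln5 it was -0.79 ± 0.16 (adjusted p = 0.0056), from -0.38 at GD18 and 0.41 at GD17. Col1a1, the gene of a collagen chain, had the same sign (-0.47, adjusted p = 0.0251), and the 8 exocrine pancreas genes, high in 2 of the 3 pools of 17 f, had the opposite sign (median 1.65, 0 of 8 called), as had the 8 liver genes (median 3.95, 0 of 8 called, 8 with an unadjusted p under 0.05). Their part in these differences was not tested. The 3 pools high in pancreas genes were 17 m 3, 17 f 2 and 17 f 3. With them left out, which leaves 1 pool in 17 f, the interaction was -0.80 in the brighter Eln probe set and -0.91 in Fbln5. The call of the brighter Eln probe set was lost with only the groups compared in the fit (adjusted p = 0.0621). It was also lost without 17 m 2 (0.053), 18 m 1 (0.05, just past the threshold) or 18 f 1 (0.0609). Averaged over both Fbln5 probe sets, the interaction was -0.34 (adjusted p = 0.21).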

How the results depend on the processing

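The limits were those of 3 pools a group. Of the 88 gene differences (8 genes in 11 comparisons), the 9 alternatives of normalization and model gave 748 of 792 values with the same call and 44 with another, and none changed sign where a call was made. With a pool left out at a time, 58 of 1584 values had another call, and 10 of the 19 called differences were called in every fit: Eln and Fbln5 between the days in flutamide-treated males and females, Eln in males, Loxl1 in all 3 groups, Lox in females, and the interaction of sex and day for Fbln5.

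Counts of the 8 genes called moved as follows, and the cause was not tested. The alternatives can also change how many of all probe sets are called. That share is not given here for any of them, so these counts have nothing to be set against. For males minus females at GD17 (1 called), the count was 0 with arrays centred on their medians, with only the groups compared in the fit, with the replicate block, and with the pancreas-rich pools left out or given an indicator; it was 2 with the dim filter or without pool 3 of 18 m and of 18 flut, and 3 with array weights. Array weights gave 2 for flutamide-treated males minus males at GD18 and for males minus females at GD18 (0 each), 4 for flutamide-treated males minus females at GD17 (1) and 1 for the interaction of flutamide and day (0), where Fbln5 passed (0.70, adjusted p = 0.0254). Cyclic loess and quantile normalization gave 1 for flutamide-treated males minus males at GD18, which was Loxl1. For the interaction of sex and day (2), cyclic loess gave 4 (with Lox and Loxl1), quantile normalization, the dim filter, array weights and the trended robust prior gave 3 (with Loxl1, adjusted p of 0.0171, 0.025, 0.0326 and 0.048), and only the groups compared in the fit, or leaving out the pancreas-rich pools, gave 1. For GD18 minus GD17 in males (5), the count was 1 with only the groups compared and 2 without the pancreas-rich pools or with their indicator. For flutamide-treated males minus females at GD17 (1) it was 0 under both of these. For males minus females at GD18 (0), it was 1 without pool 3 of 18 m and of 18 flut. Averaging the probe sets of a gene ended 5 calls and made 3. It ended those of Fbln5 in the interaction of sex and day (-0.34, adjusted p = 0.21) and in males minus females at GD17 (0.19, 0.418). The day in males for Lox (0.09, 0.476) and Mfap2 (-0.11, 0.159), and in females for Mfap2 (-0.10, 0.18), were also lost. The new calls were Eln in males minus females at GD17 (0.47, 0.0242), Lox in the interaction of sex and day (-0.42, 0.0388) and Fbn2 between the days in flutamide-treated males (-0.26, 0.0431). With a pool left out at a time, counts were 0 to 3 for males minus females at GD17, 0 to 1 at GD18, 0 to 1 for flutamide-treated males minus males at GD18 and minus females at GD17, 2 to 5, 4 to 6 and 3 to 4 for the day in males, females and flutamide-treated males, and 1 to 4 for the interaction of sex and day. The replicate block ended 2 calls, males minus females at GD17 in Fbln5 (adjusted p = 0.0649) and the day in females in Mfap2 (0.061), and no other. Whether shared replicate numbers pair any pools cannot be told from the labels.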
